A study of Mus musculus with 20 samples.

Results

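Poly(A) RNA of whole hippocampus was compared between mice given dexamethasone and mice given phosphate-buffered saline (PBS) in an animal whose glucocorticoid receptor gene leaves the full-length receptor, GRA, as the form made. The 10 libraries labelled GRA knockin, of 20 in the series, were taken by that label: 5 from PBS mice and 5 from dexamethasone mice, 1 mouse each. All 10 mice were homozygous knockin males of the C57BL/6 strain, in which exon 2 of the receptor gene Nr3c1 carries intact the start codon of GRA and mutated start codons for the 7 shorter forms (GRB, GRC1 to GRC3 and GRD1 to GRD3). All 10, the PBS mice included, had their adrenal glands removed at about 2.5 months of age. At 2 weeks after that surgery they received PBS or dexamethasone (1 mg per kg, into the peritoneum), and tissue was taken 6 h later. The replacement is not restricted to a cell type by any label, and the tissue holds neurons, glia, vessels and some neighbouring structures together. The 10 wild-type libraries of the series (5 PBS, 5 dexamethasone, also adrenalectomized) were part of the same fit. The knockin standard errors and adjusted p-values therefore draw on them too. Their own responses are used where both genotypes are set side by side, and to choose gene sets that are then read in the knockin libraries.

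The glucocorticoid receptor is a transcription factor that waits in the cytoplasm bound to chaperones, moves to the nucleus when it binds a steroid and acts on DNA either directly, at palindromic response elements, or through other factors such as NF-kappaB. Translation of its messenger RNA can begin at several codons in exon 2, giving proteins that share the DNA-binding and ligand-binding parts and differ in the length of the N-terminal activation region. In brain the receptor is made by neurons, astrocytes, oligodendrocytes, microglia and endothelial cells. The hippocampus is a classic site of glucocorticoid feedback and also holds the related mineralocorticoid receptor. Dexamethasone is a synthetic agonist that is selective for the glucocorticoid receptor and whose entry into brain is limited by efflux transport at the blood-brain barrier.

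The 10 libraries held 11493014 to 48267708 gene-assigned read pairs (PBS 11493014 to 28085200, dexamethasone 19459578 to 48267708). The defining markers of the hippocampal fields were present in all 10: the dentate transcription factor gene Prox1 at 136 to 171 and the CA1 gene Wfs1 at 136 to 203 CPM. Levels of these markers and the summed levels of marker lists are scaled to the library total (CPM), and all other CPM values are also scaled between libraries by edgeR's TMM factors. Principal component 1 (33% of variance) put the PBS libraries at -14.1 to -27.8 and the dexamethasone libraries at 13.7 to 25.8. A set of 3 libraries stood apart from their groups: PBS replicate 5 on the second component (34.7) and PBS replicate 4 on the third (-27.7), while dexamethasone replicate 2 held 2132 CPM summed over 14 choroid plexus markers, against 201 to 1096 CPM in the other 9. A call is termed retained below when it also passed in the 10 fits that left out each knockin library in turn and in the fit that left out these 3 libraries together. Choroid plexus transcripts come from tissue next to the hippocampus, and no member of that list was called (median log2 fold change 0.57).

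Dexamethasone changed 1864 of 18648 genes tested in the knockin hippocampus, 10.0% of them, by edgeR's quasi-likelihood test at an adjusted p below 0.05. Of these, 985 (5.28%) rose and 879 (4.71%) fell, and 1131 calls were retained (602 higher, 529 lower). Large changes were mostly rises: 156 genes rose at least 2-fold (0.837%) and 112 fell at least 2-fold (0.601%), and at a 4-fold limit the counts were 46 and 4. The median log2 fold change was 0.36 among the genes that rose, -0.45 among those that fell and 0.00154 over all genes tested. The ranges of the PBS and dexamethasone libraries were apart in 1306 called genes, while over every gene tested the share with separate ranges was 8.68%. In the lowest of 4 equal classes of genes by level 5.53% were called, with a median standard error of 0.25, and in the highest class 13.1%, with a median standard error of 0.0417. In the highest class 12 genes rose at least 2-fold and 0 fell as far. Among protein-coding genes 11.9% were called, against 5.73% of 1064 long noncoding RNA genes.

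**Figure D1:**
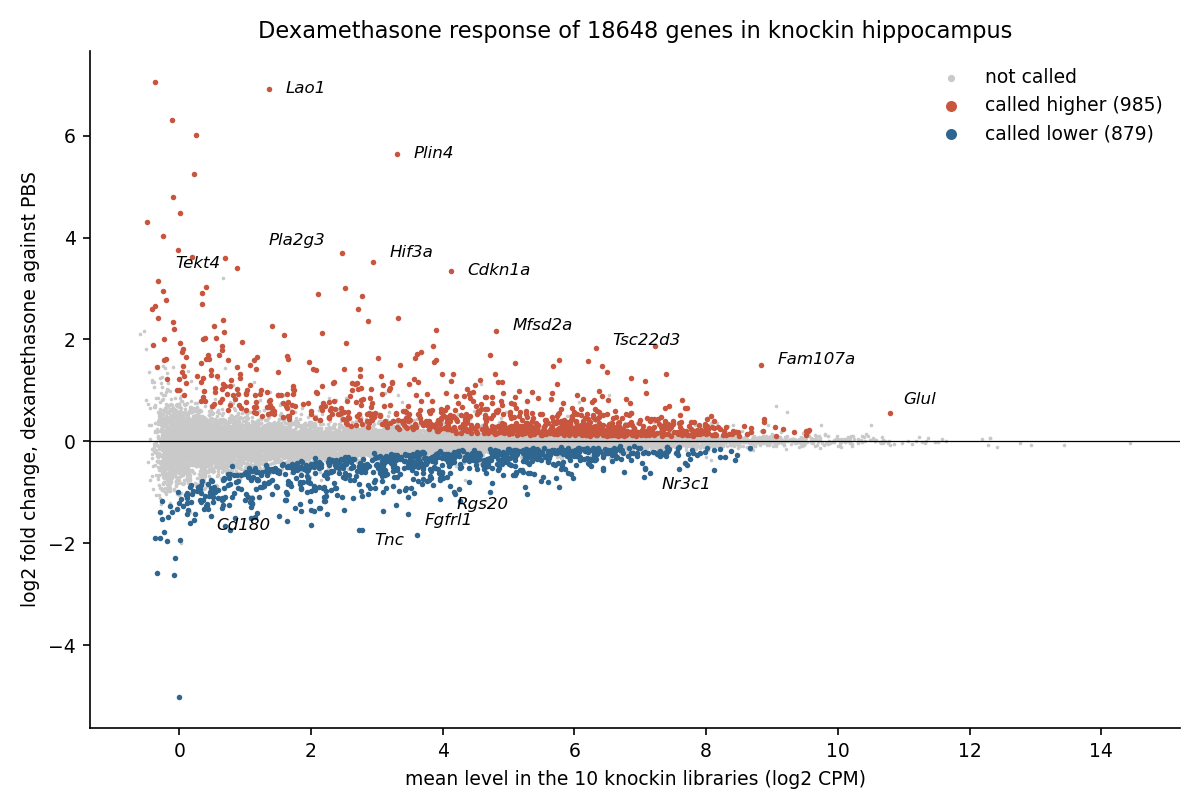
Each point is 1 of the 18648 genes tested, with its mean level over the 10 knockin libraries (log2 CPM) on the horizontal axis and its log2 fold change, dexamethasone against PBS, on the vertical axis. Red points are the 985 genes called higher and blue points the 879 called lower. The largest rises reach further from 0 than nearly all falls, and the right of the plot holds small called changes.

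Genes are ranked by fold change here among called genes that have a name, a mean log2 CPM of at least 1 and groups that did not overlap; larger folds in the plot belong to genes of lower level or without a name. The first gene of that order was close to silent in the adrenalectomized PBS mice. Lao1 (ENSMUSG00000024903.11, mm39 chromosome 4, 118818775 to 118826109, plus strand), an L-amino acid oxidase gene, had 0, 0.0461, 0.05301, 0.2 and 0.174 CPM under PBS and 6.95, 14.9, 13.7, 10.9 and 9.49 CPM under dexamethasone. Its PBS libraries held 9 read pairs between them and its dexamethasone libraries 1419, and no PBS library held more than 5 while no dexamethasone library held fewer than 193. The fitted log2 fold change was 6.92 (SE 0.60), which at so few PBS read pairs depends on the prior count. Plin4 (ENSMUSG00000002831.16, chromosome 17, 56407591 to 56416803, minus strand), which encodes a perilipin that coats lipid droplets, had 1.17, 0.922, 0.848, 1.28 and 1.83 CPM under PBS and 58.7, 66.8, 60.8, 49.99 and 56.8 CPM under dexamethasone. It rose 50.2-fold (log2 fold change 5.65 (SE 0.23), edgeR adjusted p = 2.01e-11), and the lowest dexamethasone library stood far above the highest PBS library. Further down the order, Sult1a1 (ENSMUSG00000030711.17, chromosome 7, 126272037 to 126275604, minus strand), a phenol sulfotransferase gene, had 2.92, 1.199, 1.43, 3 and 3.22 CPM under PBS and 15.7, 16.8, 15.98, 21.2 and 15.2 CPM under dexamethasone and rose 7.25-fold (log2 fold change 2.86 (SE 0.27), edgeR adjusted p = 8.27e-07). Dexamethasone replicate 4 was the highest library for Sult1a1.

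To show the DNA next to the start sites of induced genes, the RefSeq promoters (build GRCm38.p6, 250 bases before to 50 after the start, printed 5′ to 3′ on the strand of the gene) of Lao1, Plin4 and Sult1a1 were read. Lao1 and Plin4 are the largest rises, and Sult1a1 was chosen because its window holds the receptor element, alone among the receptor-induced genes with a promoter in the table. Capitals mark the best match to the palindromic element where one was found. The element searched was AGAACA, any 3 bases, then TGTTCT, on both strands, with at most 2 mismatches in its 12 fixed bases. The windows are chr4:118961717-118962016, chr17:56109733-56110032 and chr7:126676369-126676668.
Lao1: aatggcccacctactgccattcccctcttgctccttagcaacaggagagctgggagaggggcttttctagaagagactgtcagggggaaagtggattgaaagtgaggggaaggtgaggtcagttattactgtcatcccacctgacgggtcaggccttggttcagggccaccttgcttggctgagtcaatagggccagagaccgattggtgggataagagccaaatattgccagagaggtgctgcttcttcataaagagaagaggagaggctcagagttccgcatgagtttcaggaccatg
Plin4: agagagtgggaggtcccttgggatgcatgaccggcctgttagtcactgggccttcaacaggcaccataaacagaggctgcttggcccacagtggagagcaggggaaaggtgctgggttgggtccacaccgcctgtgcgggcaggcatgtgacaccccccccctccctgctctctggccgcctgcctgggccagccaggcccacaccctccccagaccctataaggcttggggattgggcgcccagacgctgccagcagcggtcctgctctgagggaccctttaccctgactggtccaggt
Sult1a1: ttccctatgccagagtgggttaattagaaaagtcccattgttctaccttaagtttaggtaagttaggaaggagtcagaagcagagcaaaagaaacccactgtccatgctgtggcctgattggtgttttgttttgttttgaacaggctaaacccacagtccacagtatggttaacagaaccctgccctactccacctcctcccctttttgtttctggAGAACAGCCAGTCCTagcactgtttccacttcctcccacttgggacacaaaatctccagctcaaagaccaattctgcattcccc
The Sult1a1 match starts 34 bases before the start site and has 2 mismatches, while the Lao1 and Plin4 windows held none. Over the 102 promoters available for genes that rose at least 2-fold, 2 held the element (1.96%, exact binomial 95% interval 0.238 to 6.9%), against 127 of 12343 promoters of genes tested (1.03%) and 492 of all 27025 in the table (1.82%). None of 74 promoters of genes that fell at least 2-fold held it (interval up to 4.86%). The shorter 6-base arm, AGAACA or TGTTCT, stood in 21 of the 102 promoters (20.6%), in 8 of the 74 (10.8%), in 12.6% of the promoters of genes tested and in 19% of all. These are matches of letters within 300 bases and are not evidence of receptor binding; a longer window was not searched.

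Hif3a (ENSMUSG00000004328.16, chromosome 7, 16765432 to 16796352, minus strand), the hypoxia-inducible factor gene whose product restrains the other members of its family, had 1.85, 1.798, 1.91, 2.2 and 2.52 CPM under PBS and 21.8, 23.7, 17.7, 28.5 and 23.1 CPM under dexamethasone and rose 11.4-fold (log2 fold change 3.51 (SE 0.18), edgeR adjusted p = 3.63e-11). Cdkn1a (chromosome 17, 29309953 to 29319701, plus strand), whose product p21 blocks cyclin-dependent kinases, had 4.69, 4.43, 5.41, 6 and 6.35 CPM under PBS and 39.5, 63.1, 61.2, 70.7 and 35.1 CPM under dexamethasone. Within the dexamethasone group Cdkn1a fell into replicates 1 and 5, below 40 CPM, and replicates 2 to 4, above 60 CPM, and both sets lay above every PBS library (log2 fold change 3.35 (SE 0.32), edgeR adjusted p = 1.81e-06). Pla2g3, a secreted phospholipase gene, rose from 1.33 ± 0.224 to 16.97 ± 4.74 CPM (SD, n = 5), the microtubule protein gene Tekt4 from 0.334 ± 0.138 to 3.65 ± 0.745 CPM, and Fmo2, a flavin monooxygenase gene, from 1.42 ± 0.495 to 10.3 ± 4.96 CPM. The kinase gene Map3k6 rose from 2.47 ± 0.898 to 15.1 ± 4.28 CPM, the transporter gene Slc43a3 from 0.943 ± 0.122 to 4.59 ± 1.42 CPM, and Xdh, which encodes the xanthine-oxidizing enzyme, from 4.22 ± 1.54 to 23.1 ± 11.6 CPM. Xdh had its highest dexamethasone value, 43.0 CPM, in replicate 4 and its highest PBS value, 6.92 CPM, in PBS replicate 4.

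By the size of the change relative to its error, the leading gene was Mfsd2a (ENSMUSG00000028655.12, chromosome 4, 122840643 to 122854981, minus strand), which encodes the endothelial carrier of docosahexaenoic lipid that also keeps vesicle traffic across the blood-brain barrier low. It had 12.1, 13.5, 12.9, 12.7 and 13.6 CPM under PBS and 51.8, 60.2, 62.1, 58.3 and 59.3 CPM under dexamethasone. The groups were far apart and each was narrow (log2 fold change 2.17 (SE 0.08), edgeR adjusted p = 1.44e-14). Kirrel2, an adhesion molecule gene, rose from 6.66 ± 0.564 to 30.5 ± 3.59 CPM (SD, n = 5; log2 fold change 2.18 (SE 0.10)). Lrrc58 (from 97.6 ± 6.48 to 189.6 ± 8.65 CPM), the endosomal Rab regulator gene Rin2 (28.9 ± 1.76 to 56.3 ± 4.44 CPM) and the formin gene Daam2 (59.2 ± 4.45 to 103 ± 2.25 CPM) also rose, with log2 fold changes of 0.96, 0.97 and 0.80.

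On a scale of level per transcript length, the largest gain was that of Glul, the glutamine synthetase gene of astrocytes, which went from 436 to 645 CPM per kb (1481, 1281, 1357, 1630.3 and 1558 CPM under PBS and 2189, 2113, 2011, 2324 and 2174 CPM under dexamethasone). Fam107a, an actin-bundling protein gene induced by glucocorticoids and stress, went from 71.4 to 203 CPM per kb and had 258, 222, 229, 396 and 271 CPM under PBS and 703, 717, 719.8, 1040.4 and 733 CPM under dexamethasone. For Fam107a replicate 4 was the highest library of both groups, and the lowest dexamethasone library lay above the highest PBS library. Mt1 (72.05 to 163 CPM per kb) and Mt2 (34.2 to 100.1 CPM per kb), the metallothioneins that bind zinc and copper, the secreted protease gene Htra1 (52.1 to 131 CPM per kb) and Selenop, the selenium carrier (78.2 to 123 CPM per kb), completed the 6 largest gains. The largest losses per length were Plpp3, a lipid phosphate phosphatase gene (107 to 71.9 CPM per kb), Car2, carbonic anhydrase (89.9 to 62.5 CPM per kb), the myelin enzyme gene Cnp (139 to 113 CPM per kb), the sphingosine phosphate receptor gene S1pr1 (56.1 to 34.3 CPM per kb), Bsg (186 to 168 CPM per kb) and Mtss1l (46.6 to 32.03 CPM per kb). The Cnp call (edgeR adjusted p = 0.0398) was lost in 7 of the 10 fits without a single library, with the highest adjusted p at 0.117. Plpp3 was steadier, and its highest edgeR adjusted p in those fits was 8.39e-08. It had 329.6, 326, 341, 360 and 332 CPM under PBS and 227, 209, 207, 269.7 and 224 CPM under dexamethasone (log2 fold change -0.57 (SE 0.05), edgeR adjusted p = 7.55e-09). Genes ranked here by fold change, by level per length or by p were drawn from called genes whose groups did not overlap. The lack of overlap in these genes was therefore fixed by the choice.

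By the same ranking none of the 12 largest falls reached 4-fold. Tnc (ENSMUSG00000028364.16, chromosome 4, 63878022 to 63965252, minus strand), tenascin C, a matrix glycoprotein, had 12.6, 14.1, 15.3, 6.4 and 10.3 CPM under PBS and 3.56, 3.18, 5.45, 2.87 and 2.66 CPM under dexamethasone. The lowest PBS library for Tnc was replicate 4, still above the highest dexamethasone library, replicate 3 (log2 fold change -1.74 (SE 0.26), edgeR adjusted p = 0.000162). Serpinb1a (chromosome 13, 33026075 to 33035168, minus strand), an inhibitor of neutrophil proteases, had 9.39, 11.8, 13.1, 12.6 and 9.48 CPM under PBS and 4.503, 3.04, 3.06, 2.28 and 3.74 CPM under dexamethasone (log2 fold change -1.74 (SE 0.14), edgeR adjusted p = 8.3e-09); it has close gene copies, so its count is uncertain. Fgfrl1 (chromosome 5, 108842134 to 108854790, plus strand), a receptor that binds fibroblast growth factors but has no kinase, had 18.2, 17.01, 15.9, 18.96 and 16.8 CPM under PBS and 6.702, 5.94, 6.12, 7.08 and 6.099 CPM under dexamethasone, with groups that were narrow and apart (log2 fold change -1.44 (SE 0.08), edgeR adjusted p = 1.39e-12). Celsr1, a planar polarity cadherin gene, fell from 13.2 ± 0.622 to 4.94 ± 1.19 CPM (SD, n = 5), Slc38a5, a glutamine transporter gene, from 6.23 ± 1.36 to 1.93 ± 0.3998 CPM, and Tnfsf10, the death ligand TRAIL, from 5.89 ± 0.551 to 2.27 ± 0.7202 CPM. Cd180, a Toll-like receptor homolog of B cells and microglia, fell from 4.45 ± 0.682 to 1.49 ± 0.327 CPM, Gbp2 from 5.01 ± 1.21 to 1.94 ± 0.314 CPM and Gbp4 from 3.94 ± 0.796 to 1.43 ± 0.524 CPM. Gbp9 fell from 5.67 ± 1.07 to 2.21 ± 0.682 CPM; it lies over Gbp4 on the same strand, and pairs in both genes were not counted, so these values are uncertain.

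**Figure D2:**
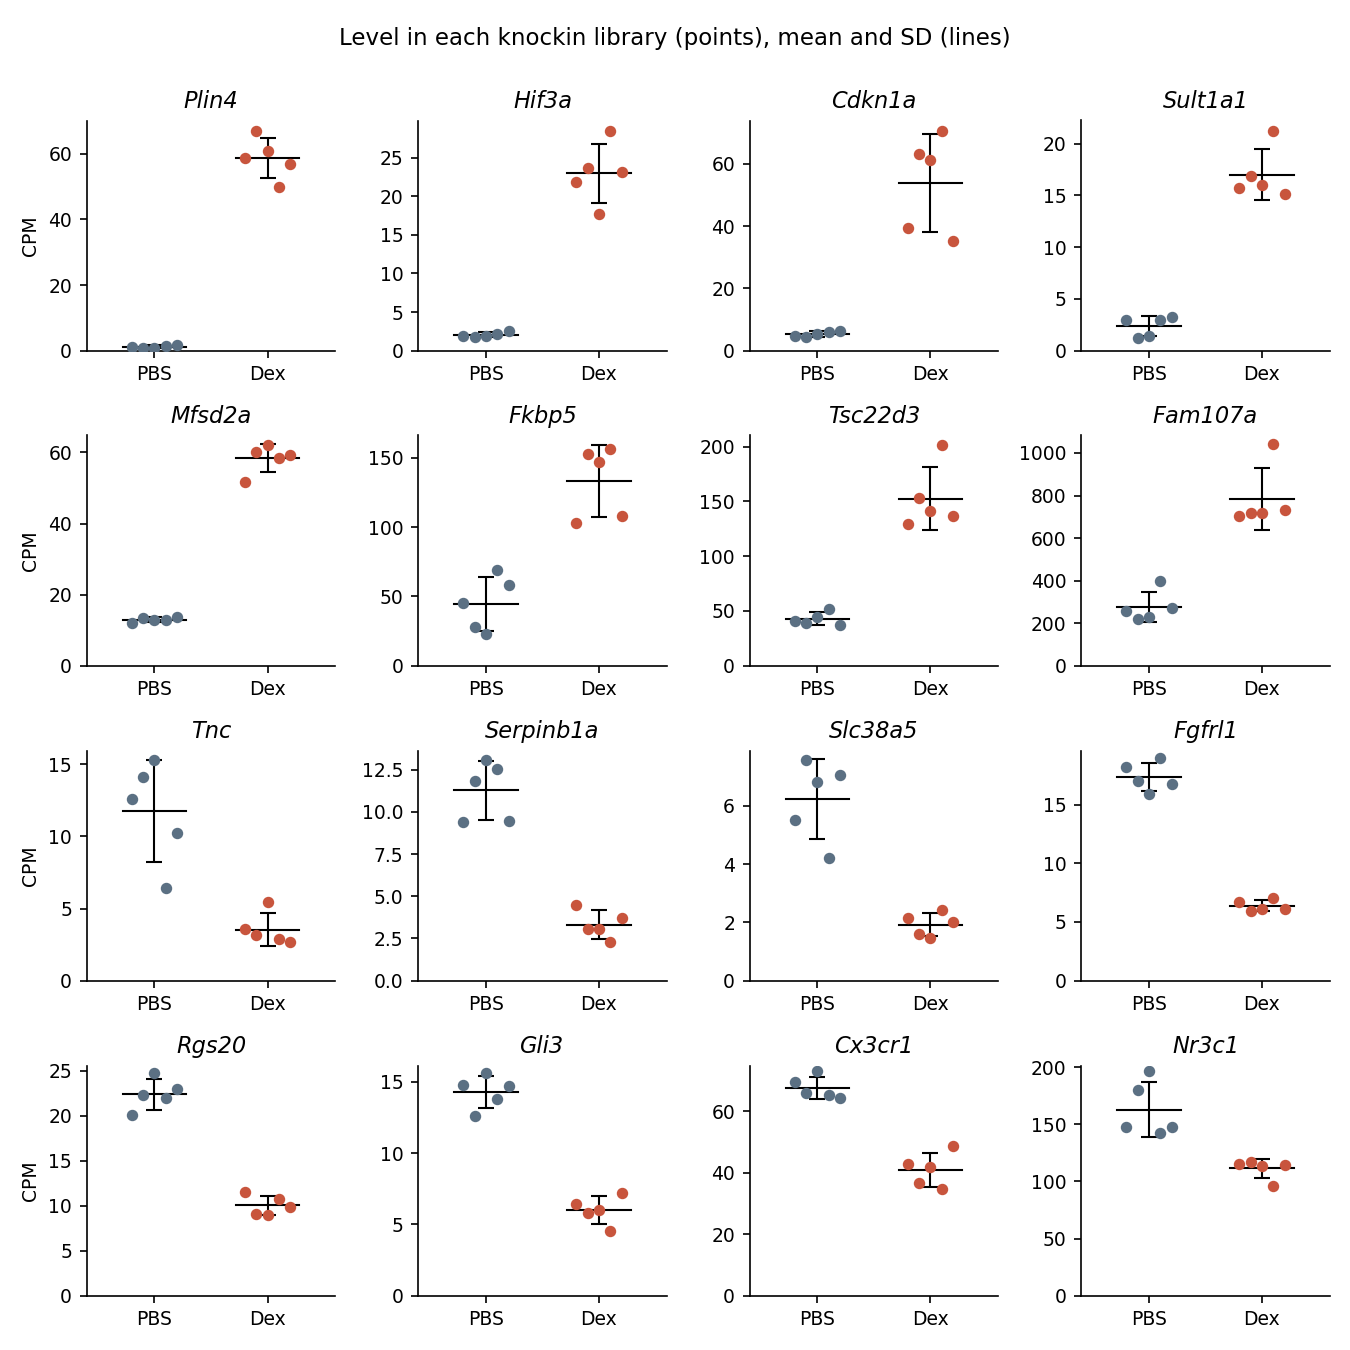
Each panel shows 1 gene, with the CPM of the 5 PBS libraries (blue-grey) and the 5 dexamethasone libraries (red) as points in replicate order, and the mean and SD as lines; every axis starts at 0. The groups do not overlap in any of the 16 panels. Many of these genes were picked from called genes whose groups did not overlap, so the panels do not show how common this was. Over every gene tested the share was 8.68%.

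The targeted gene itself was lower after dexamethasone. Nr3c1 had 148, 179.7, 196, 142 and 147 CPM under PBS and 115, 117, 114, 96 and 115 CPM under dexamethasone, with no overlap between groups (log2 fold change -0.55 (SE 0.11), edgeR adjusted p = 0.00227). A count per gene holds no information on start codons and therefore checks neither the allele nor the protein. Counts of list members in this and the following paragraphs are to be read against the shares over all genes tested, of which 5.28% rose and 4.71% fell. Every list was chosen with earlier results of these data known. A count above these shares is therefore not independent support for any list. Of 11 tested genes of corticosteroid receptors and stress peptides 0 rose and 3 fell, and 2 of the falls were retained: Nr3c1 and Adcyap1r1, the receptor for the stress peptide PACAP (from 256 ± 13.5 to 212 ± 8.48 CPM). The mineralocorticoid receptor gene Nr3c2 (-0.36) and Hsd11b1 (-0.17), which regenerates active corticosterone, did not pass (edgeR adjusted p = 0.133 and 0.203). Among 12 co-chaperones of the receptor complex 1 was called.

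That co-chaperone was Fkbp5 (chromosome 17, 28618068 to 28736498, minus strand), an inducible brake on receptor activity. It had 45.2, 27.8, 22.6, 68.96 and 58.02 CPM under PBS and 103, 152, 147, 157 and 108 CPM under dexamethasone and rose (log2 fold change 1.58 (SE 0.30), edgeR adjusted p = 0.00197). The PBS libraries spread widely for Fkbp5, with replicates 4 and 5 the highest and replicates 2 and 3 the lowest, and all 5 lay below the dexamethasone group. Of the 30 genes listed as induced by the receptor in many tissues, 23 rose and 0 fell (median log2 fold change 0.93), and 21 of the calls were retained. The list was chosen with earlier results of these data known, so its count is not independent support. Tsc22d3, whose product GILZ restrains inflammation, had 41.2, 39.01, 44.7, 51.8 and 37.1 CPM under PBS and 129, 153, 141, 202 and 137 CPM under dexamethasone, with replicate 4 the highest library of both groups. Sgk1, a kinase gene of ion transport, rose from 51.1 ± 4.1 to 143 ± 19.96 CPM (SD, n = 5), the transcription factor gene Klf15 from 14.97 ± 1.51 to 32.4 ± 1.85 CPM, and Mertk, a receptor for engulfing dead cells, from 35.9 ± 4.19 to 78.5 ± 5.81 CPM. Nfkbia, the inhibitor that holds NF-kappaB in the cytoplasm, rose from 14.2 ± 1.6 to 29.1 ± 2.82 CPM, Ddit4, a brake on mTOR, from 32.5 ± 4.04 to 58.5 ± 9.42 CPM, and Zbtb16 from 53 ± 12.1 to 93.9 ± 12.3 CPM. The smallest retained rises were in the clock gene Per1 (0.39 (SE 0.05)), Sesn1 (0.41) and Klf9 (0.49). The 7 members that did not pass were Dusp1 (0.18), Pdk4 (0.37), Cebpd (0.22), Bcl6 (0.20), Lcn2 (-0.49), Angptl4 (0.71) and Tgm2 (-0.28).

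PBS replicate 4 was the highest of the PBS libraries for 16 of these 30 genes and PBS replicate 5 for 9, and dexamethasone replicate 4 was the highest of its group for 19. Over the 161 genes called at least 2-fold higher after dexamethasone in wild-type libraries, the mean centred log2 CPM was -0.758 to -0.48 in knockin PBS and 0.464 to 0.765 in knockin dexamethasone libraries, and PBS replicate 4 was the least negative. Over the 79 genes called at least 2-fold lower there, it was 0.314 to 0.555 in knockin PBS and -0.55 to -0.231 in knockin dexamethasone libraries. Both sets kept the groups apart with no overlap. Dexamethasone replicates 1 and 5 were the nearest to 0 of their group in both sets. They had 0.464 and 0.475 over the first set and -0.231 and -0.313 over the second.

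Among genes that restrain insulin and growth signalling 8 of 24 rose and 2 fell (5 and 1 retained), where 5.28% of all genes rose and 4.71% fell. Leaving out PBS replicate 3 or dexamethasone replicate 2 left 5 higher. Retained rises were Ddit4, Foxo1 (0.24 (SE 0.05)), a transcription factor gene switched off by insulin, Trib1 (0.60 (SE 0.13)), Pik3r1 (0.18 (SE 0.04)) and Sesn1, and the retained fall was Ddit4l, a relative of Ddit4 (14.7 to 8.69 CPM). Among 5 alpha-arrestins, adaptors that help withdraw membrane proteins, 2 rose, led by Arrdc2 (7.32 ± 0.867 to 27.1 ± 6.596 CPM). Without PBS replicate 4 the count was 4. In the lipid droplet list 5 of 20 members rose and 2 fell (4 and 2 retained). Besides Plin4 these were Pnpla2, the first lipase of stored fat, with 13.7, 11.9, 13.4, 17.3 and 15.9 CPM under PBS and 39.1, 51.7, 45.2, 60.6 and 36.99 CPM under dexamethasone, its neighbour in function Plin5 (0.788 to 1.87 CPM) and Gpd1 (95.9 to 139.9 CPM), which makes glycerol phosphate. Plin2, another perilipin gene, went the other way (6.74 ± 1.02 to 4.18 ± 0.837 CPM), as did the radial glial lipid carrier gene Fabp7 (22.5 to 16.1 CPM).

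Of 28 genes of glycolysis and glycogen 4 rose and 2 fell (3 and 1 retained): the glycogen phosphorylase gene Pygm (18.9 to 29.4 CPM), the pyruvate dehydrogenase kinase gene Pdk2 (105 to 131 CPM) and Pfkp (184 to 204 CPM) rose, and the lactate carrier gene Slc16a1 fell (63.7 ± 4.88 to 36.7 ± 5.03 CPM). Glucose carrier gene Slc2a1, of endothelium and astrocytes, had 73.5, 69.5, 75.96, 78.1 and 82.5 CPM under PBS and 144, 208, 177, 222 and 151 CPM under dexamethasone. Dexamethasone replicates 1 and 5 were the lower of their group for Slc2a1 and still lay above every PBS library (log2 fold change 1.25 (SE 0.15), edgeR adjusted p = 1.91e-05). In the hypoxia list, 5 of 16 rose, and 2 of these, Hif3a and Slc2a1, were retained. Without dexamethasone replicate 3 the count was 3, and without the 3 libraries that stand apart 2. Among 24 genes of cholesterol and fatty acid synthesis, 1 rose and 2 fell, a share near the 10.0% of all genes; the falls were Srebf1 (-0.30 (SE 0.06)) and Dhcr7 (-0.30 (SE 0.06)). No respiratory chain subunit gene of 19 was called by edgeR.

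Among amino acid transporters 6 of 18 fell and 3 rose (4 and 2 retained), where 4.71% of all genes fell. Slc38a5 had 5.51, 7.56, 6.84, 4.2 and 7.05 CPM under PBS and 2.16, 1.59, 1.45, 2.42 and 2.02 CPM under dexamethasone. The cystine importer gene Slc7a11 fell from 76.9 ± 8.31 to 49.3 ± 5.05 CPM (SD, n = 5), Slc1a4 from 66.9 ± 3.83 to 53.9 ± 3.33 CPM and the glycine transporter gene Slc6a9 from 22.4 ± 2.42 to 17.5 ± 1.91 CPM, whereas the large neutral amino acid carrier gene Slc7a5 rose from 69.7 ± 6.29 to 97.1 ± 6.97 CPM and Slc38a2 from 84.5 ± 12.3 to 117 ± 16.3 CPM. Transsulfuration, which turns methionine into cysteine, had 3 of 18 higher and 0 lower, all retained. Cbs, its first enzyme, had 25, 24.99, 23.9, 24.3 and 27.3 CPM under PBS and 50.1, 51.3, 50.1, 42.6 and 52.7 CPM under dexamethasone, so every dexamethasone library stood well above every PBS library (log2 fold change 0.98 (SE 0.06), edgeR adjusted p = 2.21e-11). Mat2a, which makes the methyl donor S-adenosylmethionine, rose from 135 ± 3.04 to 219.7 ± 11.96 CPM and Cth from 2.59 ± 0.598 to 4.49 ± 1.005 CPM. Of 11 polyamine genes 2 rose, Azin1 (164 ± 5.08 to 257 ± 18.7 CPM), which spares ornithine decarboxylase, and spermine oxidase gene Smox (24.9 ± 3.45 to 45.6 ± 2.42 CPM). Metal handling had 4 of 15 higher and 1 lower, all retained: Heph, a copper ferroxidase of iron export (6.45 ± 0.765 to 20.2 ± 3.07 CPM), Mt1, Mt2 and Slc39a14 (36.2 to 44.7 CPM) rose, and the manganese exporter gene Slc30a10 fell (23.6 to 18.2 CPM).

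**Figure D3:**
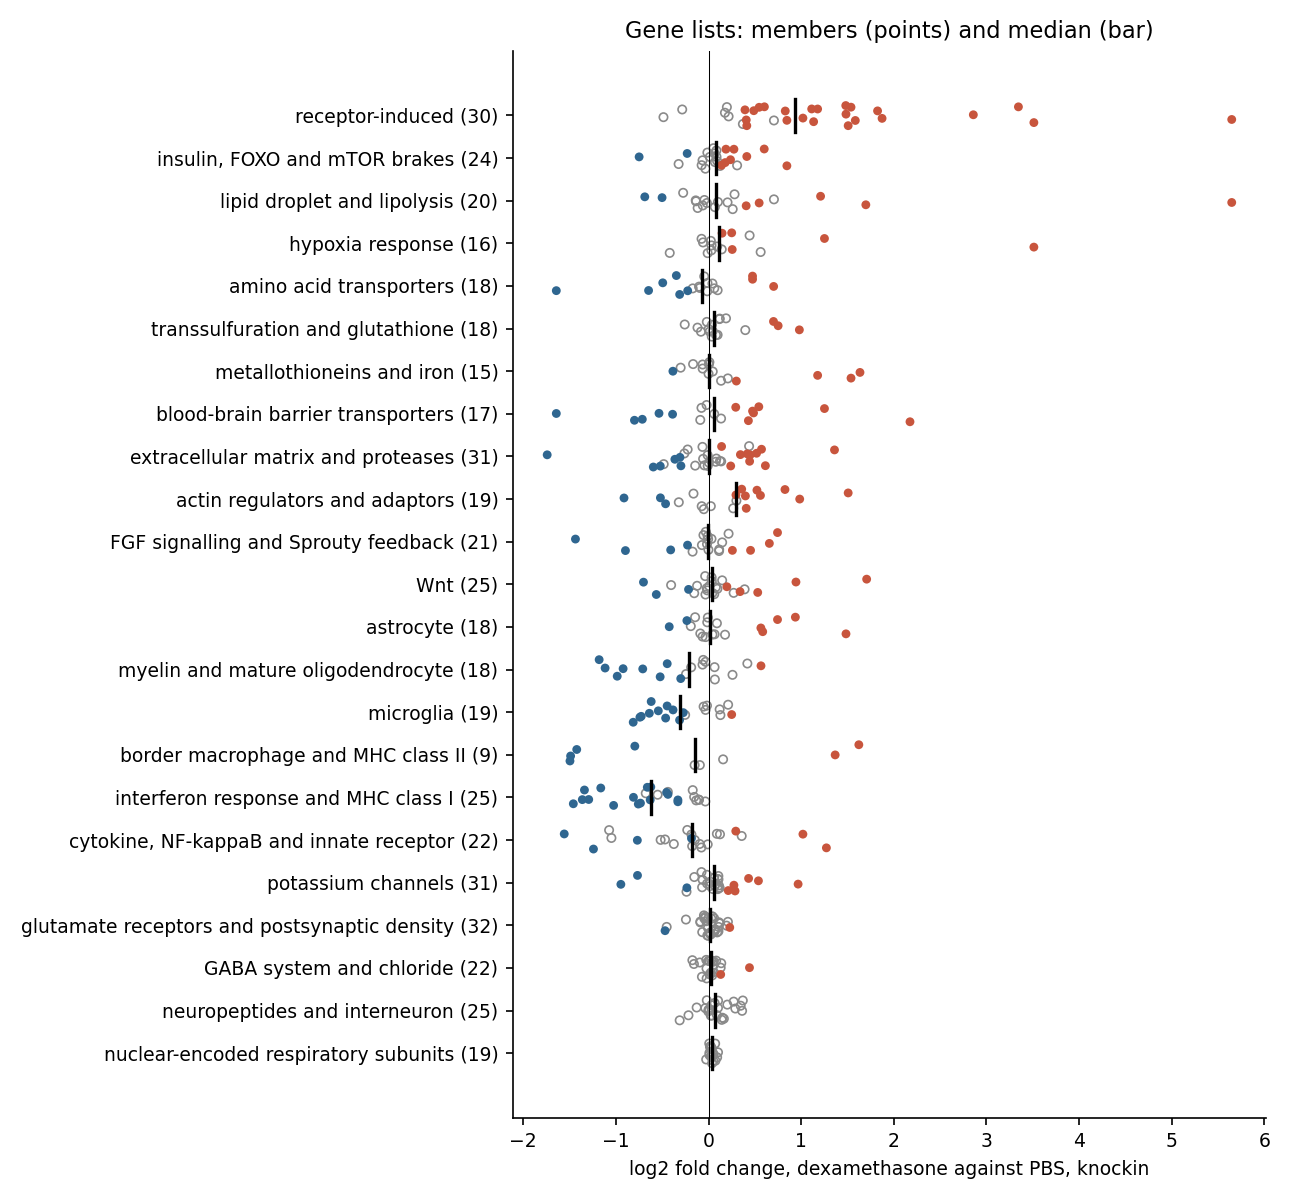
Each row is 1 list, with its number of genes tested in brackets; points are members at their log2 fold change (red called higher, blue called lower, open not called) and the bar is the list's median. The receptor-induced list has its bar at 0.93 and the interferon list at -0.62, while lists of synaptic and respiratory genes sit close to 0.

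Related growth factor receptors changed in opposite directions. In the FGF list 4 of 21 members rose and 4 fell, all retained, where 10.0% of all genes were called: Fgfr1 (132 ± 6.46 to 208 ± 25.3 CPM) and the astrocyte receptor gene Fgfr3 (89.2 ± 10.9 to 149 ± 12.2 CPM) rose, while Fgfr2 (51.5 ± 6.93 to 27.5 ± 4.17 CPM) and Fgfrl1 fell. Fgf2 rose (0.45 (SE 0.08)) and the feedback inhibitor gene Spry2 fell (-0.41 (SE 0.08)). The insulin-like growth factor receptor gene Igf1r rose from 65.2 ± 4.77 to 85.5 ± 3.72 CPM and the neurotrophin receptor gene Ntrk2 from 603 ± 21.01 to 683 ± 14.8 CPM, the 2 calls among 16 neurotrophic genes. Of 8 genes of insulin-like growth factor binding and its cleavage 2 rose, Htra1 (110.5, 98.3, 91.97, 116 and 115 CPM under PBS and 255, 266, 269.7, 276 and 268 CPM under dexamethasone) and Igfbp3 (10.9 to 16.6 CPM). Wnt signalling had 5 of 25 higher and 3 lower (3 and 3 retained). Without PBS replicate 1 the count of rises was 3. The Wnt receptor gene Fzd2 had 6.69, 7.19, 5.99, 5.24 and 7.48 CPM under PBS and 21.7, 22.2, 25.2, 16.2 and 20.3 CPM under dexamethasone and rose (log2 fold change 1.71 (SE 0.12), edgeR adjusted p = 1.13e-09). Fzd4, the receptor that endothelial cells use, rose from 15.1 ± 1.42 to 29.01 ± 6.22 CPM, and the ligand gene Wnt7a fell from 11.7 ± 1.16 to 7.14 ± 1.05 CPM.

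Several developmental regulators were among the calls. Gli3, the transcription factor gene of Hedgehog signalling that acts chiefly as a repressor, had 14.8, 12.6, 15.6, 13.8 and 14.7 CPM under PBS and 6.45, 5.802, 6.02, 4.55 and 7.18 CPM under dexamethasone, with no overlap (log2 fold change -1.25 (SE 0.10), edgeR adjusted p = 5.82e-10); of 12 Hedgehog genes 3 fell and 1 rose, and Gli3 alone was retained. Notch4, the endothelial Notch receptor gene, rose from 7.49 ± 1.12 to 17.3 ± 2.55 CPM and Notch2 fell from 42.2 ± 1.63 to 33.6 ± 2.45 CPM. In the TGF-beta and BMP list 0 of 25 rose and 4 fell (3 retained), among them Bmpr1b (28.2 to 20.5 CPM) and Tgfb1 (6.55 to 4.21 CPM). Of 15 genes of adult neurogenesis 3 fell, all retained, and 12 were not called. The falls were led by the transcription factor gene Sox2 (30.8 ± 3.08 to 20.1 ± 1.75 CPM) and the receptor gene Lpar1 (37.4 ± 4.17 to 27.3 ± 2.82 CPM). Which cells these falls came from was not tested. Apart from Cdkn1a the calls among cell cycle genes were small: Ccnd3 rose (0.28 (SE 0.05)) and the replication licensing gene Mcm2 fell (-0.42 (SE 0.10)), 2 and 1 of 18. The survival gene Bcl2l1 (90.04 to 123 CPM) and the death receptor gene Fas (0.911 to 2.16 CPM) rose, and Bcl2 (15.4 to 12.3 CPM) and Bax (18.9 to 15.8 CPM) fell. Rgs20, a brake on G-protein signals, fell in 20.1, 22.3, 24.8, 22 and 22.96 CPM under PBS and 11.5, 9.03, 8.98, 10.8 and 9.84 CPM under dexamethasone. Of the core clock genes 3 of 11 rose, with Per1 at 59.1, 61.5, 61.5, 61.1 and 59.2 CPM under PBS and 81.9, 81.2, 75.7, 76.9 and 81.3 CPM under dexamethasone and Per2 from 34.2 to 42.3 CPM; the clock output genes Rorb (24.8 ± 1.31 to 12.4 ± 1.37 CPM) and Dbp (45.3 ± 4.69 to 29.8 ± 1.18 CPM) fell and Rora rose (49.7 to 62.1 CPM).

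Glial lists divided. In RNA of whole tissue, fewer cells of a type and less RNA per cell cannot be told apart. Of 18 astrocyte genes 5 rose and 2 fell, all retained: the connexin gene Gjb6 had 27.8, 25.9, 27.6, 33.6 and 38.97 CPM under PBS and 83.6, 90.3, 78.9, 89.6 and 82.3 CPM under dexamethasone, Aldh1l1 rose from 51.6 ± 2.87 to 77.4 ± 8.95 CPM and the angiotensinogen gene Agt from 15.1 ± 2.87 to 28.7 ± 4.198 CPM, and the water channel gene Aqp4 fell from 237 ± 17.03 to 176 ± 10.8 CPM. The astrocyte list summed to 11070 to 12130 CPM under PBS and 11850 to 12970 CPM under dexamethasone. Of 18 myelin genes 8 fell and 1 rose (6 and 0 retained; median log2 fold change -0.22), where 4.71% of all genes fell. Opalin had 28.7, 24.8, 32.8, 32.4 and 23.1 CPM under PBS and 14.2, 13.8, 11.4, 11.4 and 11.8 CPM under dexamethasone, with no overlap. Gjb1 (11.5 ± 2.34 to 5.71 ± 0.9703 CPM), Aspa (15.4 ± 2.76 to 8.02 ± 1.84 CPM) and Ugt8a (58.9 ± 9.06 to 35.9 ± 5.24 CPM), which join, feed and build myelin, fell too, while the major myelin protein gene Mbp (-0.03) did not pass. The myelin sum overlapped between groups, at 5243 to 7172 CPM and 5225 to 6232 CPM, with PBS replicate 3 the highest. Of 12 precursor genes 4 rose and 2 fell, and Pdgfra (70.8 to 83.6 CPM) and Sox10 (44.6 to 30.3 CPM) were retained. Without the 3 libraries that stand apart 1 rose and 3 fell.

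Of 19 microglial genes 11 fell, all retained, and 1 rose and was not retained (median log2 fold change -0.31). The fractalkine receptor gene Cx3cr1 had 69.5, 65.7, 72.9, 65.1 and 64.3 CPM under PBS and 42.8, 36.5, 41.9, 34.5 and 48.6 CPM under dexamethasone, and all dexamethasone libraries lay below all PBS libraries (log2 fold change -0.73 (SE 0.07), edgeR adjusted p = 3.84e-07). The purinergic receptor genes P2ry12 (48.5 ± 4.05 to 31.5 ± 4.45 CPM) and P2ry13 (16.2 ± 1.72 to 9.72 ± 1.67 CPM), which sense nucleotides released by injured cells, fell, as did Aif1 (4.58 ± 0.636 to 2.599 ± 0.225 CPM), Itgam (10.5 ± 1.397 to 6.78 ± 1.03 CPM) and the identity factor gene Sall1 (26.2 ± 2.697 to 18.9 ± 2.47 CPM). Tmem119 (0.21), Csf1r (-0.03) and the complement genes C1qa (0.12), C1qb (0.13) and C1qc (-0.05), which mark the same cells, did not pass. The list summed to 643 to 718 CPM under PBS and 559 to 601 CPM under dexamethasone, without overlap. Engulfment genes rose in 4 of 14 cases and fell in 3 (4 and 1 retained), with Mertk (35.5, 31.2, 32.6, 41.1 and 38.97 CPM under PBS and 80.4, 75.6, 70.04, 85.1 and 81.5 CPM under dexamethasone), Elmo1 (44.6 to 65.5 CPM) and Gas6 (72.2 to 85.5 CPM) higher.

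Of 25 interferon response genes 16 fell and 0 rose, and all 25 fold changes were below 0 (median -0.62, against 0.00154 over all genes). The falls were led by the guanylate-binding protein genes Gbp3 (5.796, 5.16, 6.202, 6.12 and 7.74 CPM under PBS and 2.91, 3.32, 2.802, 2.21 and 2.41 CPM under dexamethasone), Gbp2 and Gbp4 and by the antiviral genes Ifitm3 (9.67 ± 1.72 to 4.82 ± 0.911 CPM), Ifit1 (2.61 ± 1.13 to 1.03 ± 0.253 CPM) and Ifit3 (8.5 ± 3.03 to 3.23 ± 0.601 CPM). The antigen-presenting genes H2-K1 (28.6 ± 2.84 to 21.1 ± 1.56 CPM) and Tap1 (4.55 ± 0.515 to 2.95 ± 0.241 CPM) fell less. These 8 were the retained calls. Several of these genes have close copies, so their counts are uncertain. The signal carriers Stat2 (-0.10) and Irf9 (-0.10) did not pass. The mean centred log2 CPM of the list was 0.562 in PBS replicate 5, 0.364 in PBS replicate 4, 0.0202 to 0.203 in the other PBS libraries and -0.299 to -0.189 in the dexamethasone libraries. Ifit1 shows that order: 2.098, 1.98, 1.75, 2.72 and 4.52 CPM under PBS and 0.942, 0.702, 1.401, 1.09 and 1.03 CPM under dexamethasone. Without the 3 libraries that stand apart, 9 members fell and 0 rose. 

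Marker genes of macrophages at the borders of the brain and of antigen-presenting cells changed in both directions. Cd163, a hemoglobin scavenger receptor gene, had 1.96, 1.15, 1.54, 1.2 and 1.22 CPM under PBS and 3.96, 4.35, 3.58, 2.94 and 3.79 CPM under dexamethasone (log2 fold change 1.37 (SE 0.20), edgeR adjusted p = 1.38e-05), and Lyve1 rose from 0.447 ± 0.0827 to 1.403 ± 0.503 CPM. The MHC class II genes were lower: H2-Aa had 3.59, 1.66, 2.597, 3.6 and 2.61 CPM under PBS and 0.8796, 1.31, 0.8301, 0.736 and 1.43 CPM under dexamethasone (log2 fold change -1.49 (SE 0.29), edgeR adjusted p = 0.00107) and the invariant chain gene Cd74 had 7.68, 4.196, 5.88, 9.399 and 7.48 CPM under PBS and 2.26, 3.32, 2.13, 2.73 and 2.61 CPM under dexamethasone (log2 fold change -1.42 (SE 0.28), edgeR adjusted p = 0.00185). PBS replicate 2 was the lowest PBS library for both and lay close to the highest dexamethasone value. H2-Ab1 (-1.50) passed in each fit without a single library but not without the 3 that stand apart (edgeR adjusted p = 0.117), and H2-Eb1 (-0.80, edgeR adjusted p = 0.0485) was lost in 9 of the 10 fits without a single library. The 9 tested members thus held 2 rises and 4 falls, and 2 falls without those 3 libraries. The list of 12 summed to 19.4 to 37.2 CPM under PBS, highest in replicate 4, and 19.4 to 23.9 CPM under dexamethasone. Mrc1 (-0.09) and the master regulator of MHC class II, Ciita (-0.15), did not pass.

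Among 22 cytokine, NF-kappaB and innate receptor genes 3 rose and 4 fell, with 8 falls in the fit without PBS replicate 1. The Toll-like receptor genes divided: Tlr7 had 3.24, 4.01, 4.35, 4.48 and 4.09 CPM under PBS and 7.37, 10.3, 10.01, 14.2 and 6.69 CPM under dexamethasone and rose (edgeR adjusted p = 9.4e-05), whereas Tlr2 (1.66 ± 0.4305 to 0.678 ± 0.169 CPM) and Tlr3 (17.5 ± 0.827 to 10.2 ± 1.203 CPM) fell. Cd180 had 4.94, 3.87, 5.41, 4.04 and 4.001 CPM under PBS and 1.91, 1.45, 1.19, 1.16 and 1.72 CPM under dexamethasone, with no overlap. The cytokine list's mean centred log2 CPM was 0.332 in PBS replicate 4 and -0.0516 to 0.0223 in the other PBS libraries. Neutrophil markers summed to 8.64 to 17.0 CPM under PBS, highest in replicate 4, and 5.81 to 8.00 CPM under dexamethasone; most of that sum was Csf3r (6.77 ± 1.13 to 4.205 ± 0.941 CPM), the 1 called member of 3 tested. S100a8, a defining neutrophil gene, had 79 read pairs over the PBS and 21 over the dexamethasone libraries. The part of blood cells in the immune lists was not tested.

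**Figure D4:**
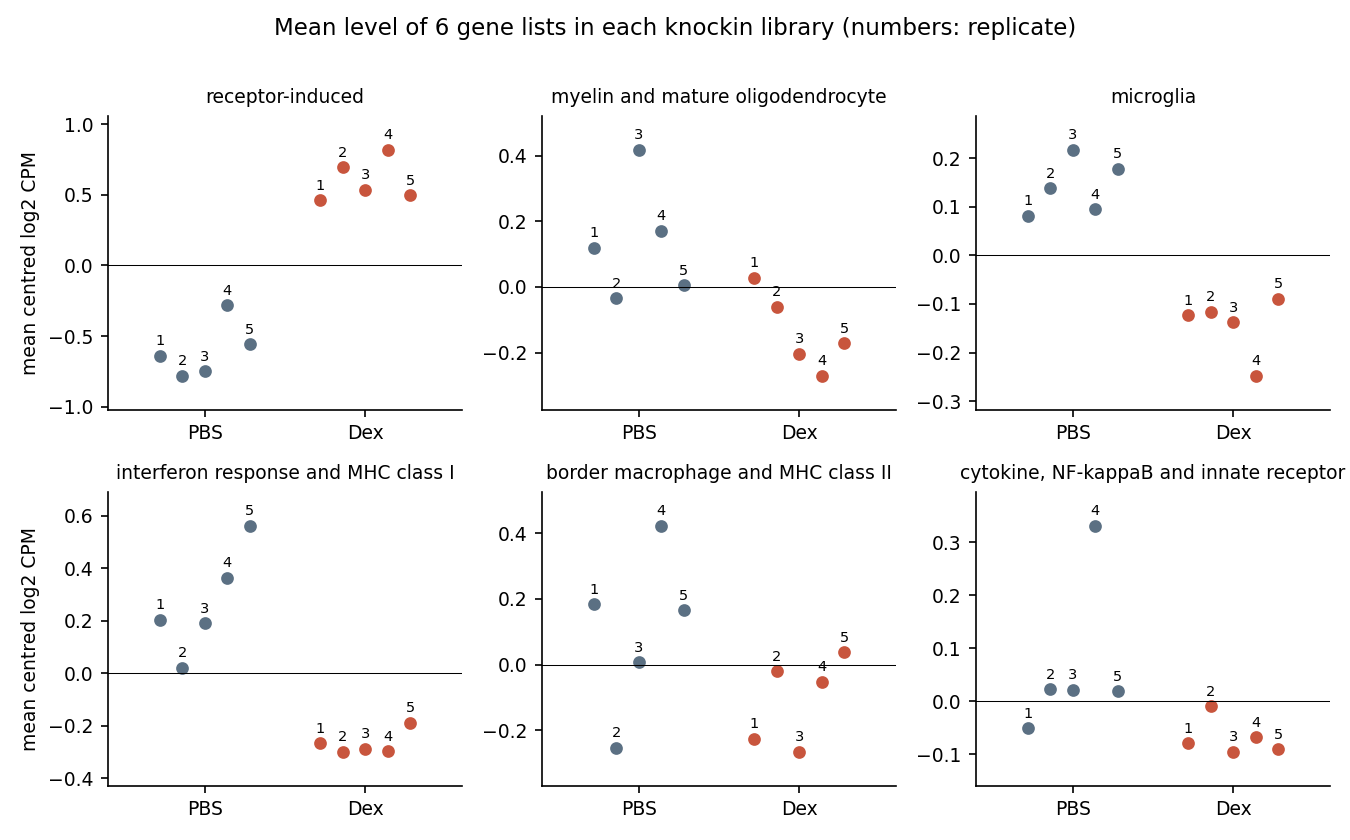
Each panel is 1 list and each point 1 knockin library, labelled with its replicate number; the vertical axis is the mean over the list's tested members of log2 CPM centred on the 10 libraries. PBS and dexamethasone libraries are apart for the receptor-induced, microglia and interferon lists and overlap for the other 3 lists; PBS replicates 4 and 5 are the highest for interferon genes and PBS replicate 4 for cytokine genes.

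Among the transport genes of the blood-brain barrier 7 of 17 rose and 5 fell (6 and 5 retained), where 10.0% of all genes were called. With Mfsd2a and Slc2a1, the efflux pump genes Abcg2 (18.8 ± 1.75 to 27.2 ± 1.93 CPM), Abcc4 (14.2 to 19.1 CPM) and Abcb1a (33.1 to 40.2 CPM), whose product exports dexamethasone, rose. The thyroid hormone carrier gene Slco1c1 (69.5 ± 5.62 to 48.1 ± 4.82 CPM), Slco2b1 (27.6 ± 1.88 to 21.2 ± 1.24 CPM), the organic anion carrier gene Slc22a8 (19.8 to 11.7 CPM) and the lactate carrier gene Slc16a1 fell. General endothelial genes had 3 of 17 higher and 3 lower, of which Ly6c1 (22.9 to 35.2 CPM) was retained, with 7 lower without PBS replicate 4 and 0 lower without the 3 libraries that stand apart. Their sum was 372 to 419 CPM under PBS and 329 to 378 CPM under dexamethasone. No call among 15 mural and meningeal genes was retained (1 higher, 2 lower).

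Matrix genes had 10 of 31 higher and 6 lower (7 and 3 retained), where 5.28% and 4.71% of all genes did so, and 3 falls without PBS replicate 3. The heparan sulfate proteoglycan gene Sdc4 had 57.5, 49.98, 54.5, 64.6 and 54.5 CPM under PBS and 139, 138, 140.4, 156 and 150.1 CPM under dexamethasone, and the basement membrane collagen gene Col4a1 rose from 72.5 ± 6.46 to 104 ± 11.9 CPM and the protease inhibitor gene Timp4 from 35.2 ± 4.54 to 48.01 ± 4.42 CPM. Actin regulators rose in 9 of 19 cases and fell in 3 (7 and 2 retained; median log2 fold change 0.30). Besides Fam107a these were Ezr, which ties actin to the membrane of fine astrocyte processes (54.5, 50.3, 60.1, 71.7 and 58.02 CPM under PBS and 106, 128, 121, 122 and 107 CPM under dexamethasone), Rhou (37.05 ± 1.62 to 65.7 ± 3.53 CPM) and Tns3 (94.8 ± 2.27 to 139.7 ± 7.31 CPM), while Lcp1, the actin bundler of white cells and microglia, fell (14.2 ± 2.23 to 7.56 ± 0.401 CPM). Volume-regulated anion channel genes Lrrc8a (11.5 ± 0.858 to 22.3 ± 2.31 CPM) and Lrrc8c (29.3 ± 1.57 to 50.6 ± 5.43 CPM) rose.

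Of 32 glutamate receptor and postsynaptic genes 1 rose and 1 fell: Homer2 (132 ± 7.94 to 155 ± 9.95 CPM) and Grm3, a metabotropic receptor gene also of astrocytes (57.1, 61.5, 68.1, 61.5 and 56.1 CPM under PBS and 43.6, 45.2, 44.3, 45.6 and 41.3 CPM under dexamethasone). Of 22 GABA genes 2 rose, and 1 of the calls was retained. Counts in these lists are to be read against 10.0% of all genes called. Potassium channels had 6 of 31 higher and 3 lower (3 and 3 retained), and 3 higher without PBS replicate 2 or without dexamethasone replicate 2. Kcnn2 rose (37.7 ± 3.75 to 54.5 ± 4.73 CPM), and Kcnn3 (7.6 ± 0.249 to 4.46 ± 0.633 CPM) and Kcnk13 (6.21 ± 1.08 to 3.23 ± 0.613 CPM), the resting channel of microglia, fell. Among 26 presynaptic genes Syt15 fell (2.45 ± 0.5505 to 1.07 ± 0.375 CPM) and 1 rose. The serotonin receptor genes Htr2a (14.1 ± 2.63 to 20.2 ± 2.01 CPM) and Htr4 (12.8 ± 1.35 to 16.4 ± 1.1 CPM) rose, with 3 of 21 monoamine receptor genes higher. No call was made among 25 neuropeptide and interneuron genes, 17 long noncoding RNAs, 14 CA2 and CA3 genes or 14 dentate granule genes, and 1 was made among 10 CA1 genes, Gpr161 (67.7 ± 12.1 to 101 ± 11.4 CPM). Of the dentate genes 3 were called higher without PBS replicate 4, and 4 without the 3 libraries that stand apart. In the fits without a single library, up to 2 dentate genes were called lower. Of 21 immediate-early genes 1 was called and not retained. Among 22 chaperones Hspb8 rose (14.5 ± 1.86 to 26.8 ± 3.39 CPM), and no fall was retained of 3. Markers of neighbouring tissue gave 3 of 13 thalamic and 1 of 11 striatal genes higher, with Rora and Ppp1r1b (33.9 to 49.3 CPM) retained, and 0 calls in 7 red cell and 17 liver genes; the thalamic sum was 356 to 404 CPM under PBS and 385 to 434 CPM under dexamethasone.

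The last question was whether the response with full-length receptor alone differed from that of wild-type mice, which make all forms. The difference of the responses was tested for each gene in 1 edgeR fit. It passed for 0 of 18648 genes (smallest adjusted p 1), 527 genes (2.83%) had an unadjusted p below 0.05, and DESeq2's Wald test and limma-voom also called 0 (424 and 609 genes at an unadjusted p below 0.05). In wild-type mice 9.21% of genes were called. Of the 240 wild-type calls of at least 2-fold, 237 had the same direction in knockin libraries and 206 were called there in that direction. Among genes with a mean log2 CPM of at least 1 and apart from 1 unnamed gene model, the smallest unadjusted p in that edgeR fit were for Gpr3, a constitutively active receptor gene (knockin 0.39, wild-type -0.50), Tm4sf1 (-0.45 and 0.03), the phosphatase gene Ptpn6 (-0.81 and -0.20) and Fam20a (0.19 and -0.21). Of these, Gpr3 and Fam20a were further from 0 in wild-type mice, and Tm4sf1 and Ptpn6 in knockin mice. Kirrel2 (2.18 and 1.76), Gli3 (-1.25 and -0.80) and Ifitm3 (-1.02 and -0.54), chosen after their values were seen, were further from 0 in knockin mice. Cdkn1a (3.35 and 3.71), Car2 (-0.52 and -0.59) and S1pr1 (-0.71 and -0.79), chosen in the same way, were further from 0 in wild-type mice. All had an edgeR adjusted p of 1. Interferon genes had 16 of 25 lower in knockin and 9 in wild-type mice (medians -0.62 and -0.35), and microglial genes 11 and 9 of 19. Of the microglial genes 1 was called higher in knockin and 3 in wild-type mice. Without the 3 knockin libraries that stand apart 9 interferon and 11 microglial genes were called lower in knockin mice. Over all genes, with every library in the fit, 10.0% were called in knockin and 9.21% in wild-type mice. No gene's response was shown to differ between the genotypes.

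**Figure D5:**
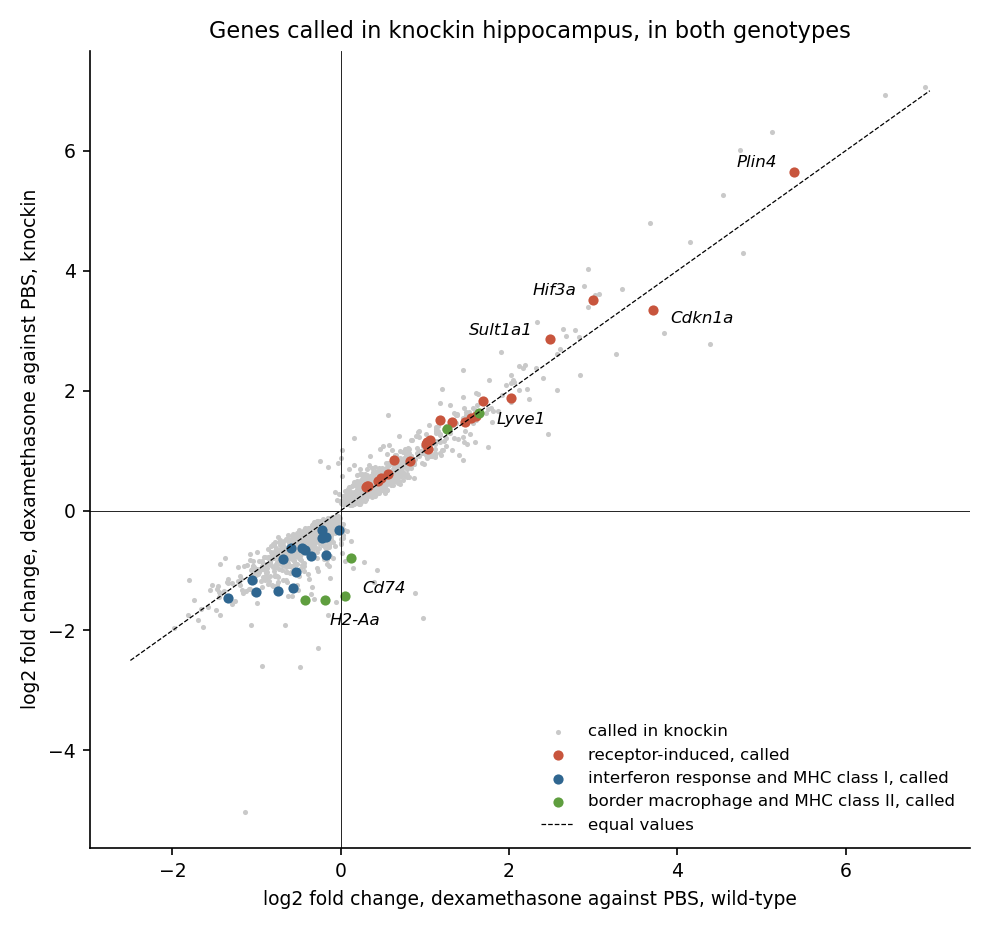
Points are the 1864 genes called in knockin libraries, at their log2 fold change in wild-type (horizontal) and knockin (vertical) libraries; coloured points are called members of 3 lists and the dashed line marks equal values. The genes were chosen by the knockin test, which favours larger knockin values. Receptor-induced genes lie near the line, and the MHC class II genes H2-Aa and Cd74 lie near 0 in wild-type and below -1 in knockin libraries, a difference that did not pass the test after adjustment.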

How the data were processed

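Raw counts of read pairs per gene were deposited by the authors, 1 table per library, made per the file headers with featureCounts 2.0.6 on GENCODE M34 (basic), unstranded, without multi-mapping or overlapping pairs. STAR 2.5.1, Subread 1.5.1, DESeq2 1.38.3 and the mm39 build are given per the submitters' processing notes. Libraries were poly(A) RNA read as paired ends of 75 bases. Pairs in a gene's copies or in overlapping genes were thus not counted.

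Counts of all 20 libraries were fitted with edgeR 4.0.16 in R 4.3.3 (TMM, 1 term per group, robust quasi-likelihood, genes kept by filterByExpr with a minimum count of 10 and total of 15), and p-values were adjusted by Benjamini-Hochberg over 18648 genes. Standard errors are the log2 fold change over the square root of F. Alternatives used DESeq2 1.42.0 and limma 3.58.1. Gene names came from the names given for 51884 of 57126 identifiers. Named genes were the 12 largest rises and falls and the 6 largest changes per kb among called genes with groups that do not overlap, the 6 smallest p-values, and members of the gene lists. The members and lists were chosen with earlier results of these data known. Libraries are 1 mouse each, so p-values measure spread between mice. Counting whole genes shows neither start codons nor protein. A few list members are not reported here by name.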

Additional observations from a re-analysis of the deposited data

Results flagged for a closer look

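For each gene named in the text, the 5 libraries of a knockin group were checked for a highest or lowest value that lay far from the rest (gap to the nearest library over the range above 0.71). Of 392 groups checked, 28 had such a library, and chance gives about 1 in 20. PBS replicate 4 and dexamethasone replicate 4 accounted for 9 each. In PBS replicate 4 the high values were those of Bmpr1b (32.6 CPM, nearest library 28), Fam107a (396 CPM, nearest library 271), H2-Ab1 (3.56 CPM, nearest library 2.2), Ifitm3 (12.6 CPM, nearest library 9.25), Lcn2 (15.1 CPM, nearest library 3.13), Mt2 (31.3 CPM, nearest library 18.1), Timp4 (43.1 CPM, nearest library 34.1) and Xdh (6.92 CPM, nearest library 3.91). PBS replicate 4 was low for Mtss1l (208 CPM, nearest library 235). In dexamethasone replicate 4 the high values were those of Fam107a (1040 CPM, nearest library 733), Lrrc8a (26.4 CPM, nearest library 21.7), Lyve1 (2.28 CPM, nearest library 1.35), Pdk2 (150 CPM, nearest library 131) and Sult1a1 (21.2 CPM, nearest library 16.8). Low values in dexamethasone replicate 4 were those of Car2 (87.8 CPM, nearest library 116), Cbs (42.6 CPM, nearest library 50.1), Nr3c1 (96 CPM, nearest library 114) and Nr3c2 (207 CPM, nearest library 243). In dexamethasone replicate 5 the high values were those of H2-Ab1 (1.77 CPM, nearest library 0.666) and Ifitm3 (6.44 CPM, nearest library 4.54). Low values in dexamethasone replicate 5 were those of Elmo1 (60.3 CPM, nearest library 65.7) and Foxo1 (63.7 CPM, nearest library 68.5). In dexamethasone replicate 2 the high values were those of Gas6 (91.8 CPM, nearest library 84.8) and Prox1 (171 CPM, nearest library 153). Dexamethasone replicate 2 was low for Kcnn3 (3.37 CPM, nearest library 4.52). In PBS replicate 5 Abcb1a (40 CPM, nearest library 33) was high. In PBS replicate 2 Gpr3 (3.09 CPM, nearest library 2.36) was high. In PBS replicate 1 Igfbp3 (12.9 CPM, nearest library 10.6) was high.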

How the results depend on the processing

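The count of genes called in knockin hippocampus, 1864, was 1499 (without PBS replicate 3) to 1954 (without PBS replicate 4) when 1 library was left out, 1858 with DESeq2's size factors, 1746 with no low-count filter, 1756 with a filter of 50 read pairs in 5 libraries, 2003 by DESeq2's Wald test, 1980 by limma-voom and 1722 with the 10 knockin libraries alone. Leaving out the 3 libraries that stand apart, a choice made after seeing the data, gave 1666, of which 1393 were also in the original 1864. Correlations of same-numbered PBS and dexamethasone libraries were -0.0304 to 0.0479 for replicates 1, 2, 3 and 5 and 0.249 for replicate 4. Libraries of unlike number had -0.157 to 0.119. Whether the replicate 4 libraries of both groups share a source was not tested. The fit with a replicate block called 1843 genes, 1749 of them shared. The share of genes risen at least 2-fold whose promoter held the receptor element, 1.96%, was 0% at 1 mismatch and 15.7% at 3 mismatches. At 3 mismatches it was 12.2% for genes that fell at least 2-fold, 8.69% for genes tested and 14.6% for all promoters. Of 173 called genes named in the text, 168 passed in every one of 18 settings, and Cnp, H2-Ab1, H2-Eb1, Sesn1 and Slc38a2 were lost in at least 1. Small changes were often missed in simulated counts. In counts simulated over all levels, changes of known size were put into 200 of 18648 genes in the knockin dexamethasone libraries. The data had 1864 called genes, and recovery with that many changed genes was not simulated. The knockin comparison recovered 54% of changes of 0.5, 92% of changes of 1 and 100% of changes of 2 on the log2 scale. It also called 8 unchanged genes. Recovery of a difference between the responses of the genotypes was not simulated.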
